A study of Mus musculus with 10 samples.

Results

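The 54 genes followed here belong to the interferon response of the mouse and were read in kidney RNA of KMS and KM mice. They were taken from the gene table by symbol and comprise the interferon receptors, the transcription factors that carry the signal, and interferon-stimulated genes that include Ifi44l, with the guanylate-binding proteins set apart. All 54 were present among the 21010 genes of the table, and all 54 passed the filter on low counts that kept 15728 genes for testing. KMS mice were Ksp1.3/cre; MYCfl/fl;Setd2fl/fl and KM mice were Ksp1.3/cre; MYCfl/fl, with 5 mice in each group, 1 library per mouse, an age of 20 weeks and the C57BL/6 strain in both. Cre under the Ksp promoter, that of the kidney cadherin gene Cdh16, acts in tubule epithelium, so MYC overexpression was shared by both groups and Setd2, the enzyme that trimethylates H3K36, was deleted in KMS mice only where Cre was active. The material is described as tubular epithelium of the cortex in the sample labels and as kidney tissue in the study's methods. The study's results describe it as neoplastic masses (KMS) and cysts (KM). The mice included males and females, but the labels do not say which mouse was which.

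Interferons are cytokines that cells release on sensing viral or misplaced nucleic acid. Type I interferons bind the receptor IFNAR1/IFNAR2 and interferon gamma binds IFNGR1/IFNGR2. Janus kinases then phosphorylate latent transcription factors, which enter the nucleus and switch on a large set of interferon-stimulated genes. Their products sense RNA, degrade or edit it, block translation and virus entry, and restrain the signal itself. Tubule cells, resident macrophages and infiltrating lymphocytes of the kidney can all respond.

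The DNA element read by the type I interferon-activated complex, which holds IRF9, and by the other IRF factors, the interferon-stimulated response element, holds 2 direct copies of GAAA separated by 2 bases (GAAANNGAAA, or TTTCNNTTTC on the other strand). These letters were searched on both strands in the 250 bases before to 50 bases after each transcription start, with overlapping matches counted separately. They stood in 20 of the 43 members that had a promoter in the RefSeq table for GRCm38.p6 (46.5%), against 1079 of all 27025 genes with one (3.99%). By role, they stood in 4 of 4 immunity-related GTPase genes, 3 of 4 sensors, 3 of 5 2-5A synthetase genes, 2 of 3 IFIT genes and 0 of 4 receptor genes. The sites below are those of genes described in the results, shown with 10 bases on either side and the matching letters in capitals: Isg15 (chr4:156200871-156200900, minus strand), Ifit3 (chr19:34583397-34583426, plus strand), Oas3 (chr5:120777715-120777744, minus strand), Stat2 (chr10:128270266-128270295, plus strand), Igtp (chr11:58199512-58199541, plus strand) and Irgm2 (chr11:58214903-58214932, plus strand).
Isg15: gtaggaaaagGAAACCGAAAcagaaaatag
Ifit3: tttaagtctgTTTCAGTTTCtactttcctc
Oas3: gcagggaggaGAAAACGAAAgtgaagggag
Stat2: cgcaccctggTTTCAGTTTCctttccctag
Igtp: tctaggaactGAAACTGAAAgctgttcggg
Irgm2: tccaggaactGAAACTGAAAgctgttcggg

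The windows of Igtp and Irgm2, which are neighbours on chromosome 11, share the matching letters and the bases that follow them. Ifi44 and Ifi44l, which are neighbours on chromosome 3, held no exact match in this window. Their 250 bases before the start are given because the results turn on this pair. Capitals mark 1 stretch in which 1 of the 8 fixed letters of the element differs, and each promoter also holds other such stretches that are not marked. The stretches of sequence are Ifi44 (chr3:151749911-151750160, minus strand) and Ifi44l (chr3:151762892-151763141, minus strand). One differing letter or none was found before the start of 34.7% of all genes, and near matches were sought after the exact search had been made.
Ifi44: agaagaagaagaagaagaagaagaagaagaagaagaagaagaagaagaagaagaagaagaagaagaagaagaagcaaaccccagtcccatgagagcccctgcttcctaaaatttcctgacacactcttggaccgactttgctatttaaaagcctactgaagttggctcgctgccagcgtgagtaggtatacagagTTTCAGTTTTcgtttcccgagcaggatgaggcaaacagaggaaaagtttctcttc
Ifi44l: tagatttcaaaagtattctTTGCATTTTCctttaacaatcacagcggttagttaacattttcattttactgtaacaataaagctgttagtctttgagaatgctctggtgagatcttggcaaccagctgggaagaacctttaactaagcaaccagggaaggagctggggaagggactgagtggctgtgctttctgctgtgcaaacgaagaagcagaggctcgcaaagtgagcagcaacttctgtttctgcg

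A match is a description of the letters only.

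Library totals were 16925118 to 25029639 counts in KMS mice and 10873993 to 14564152 counts in KM mice, with no overlap in depth between the groups. KMS 5 stood apart, with a mean Spearman correlation of 0.851 with the other KMS libraries (0.913 to 0.923 for the others) and a normalisation factor of 0.642 (0.938 to 1.22 for the other 9 libraries). Setd2 had 89.0, 36.2, 71.1, 60.4 and 28.2 CPM in the libraries labelled KMS 1 to 5, against 67.9, 62.6, 73.3, 66.2 and 69.4 CPM in those labelled KM 1 to 5 (log2 fold change -0.25, adjusted p = 0.658), and gene-level counts pool deleted with remaining exons. The tubule marker Cdh16 was abundant in all 10 libraries (837 to 1425 CPM in KMS and 421 to 1163 CPM in KM). Of 14 tubule markers, Cdh16 among them, 8 had negative and 6 positive log2 fold changes (-2.56 to 0.98, median -0.07). At an unadjusted p under 0.05 by edgeR's quasi-likelihood test, 2 were lower in KMS and 0 higher. Their summed level was 5357 to 14296 CPM in KMS and 5200 to 13479 CPM in KM. Leukocyte markers were present as well. The mean level of 4 Y-linked genes was -2.43 to -1.08 on the log2 CPM scale in KMS 1 to 3 and KM 4, and 2.34 to 6.74 in the other 6 libraries. CPM are counts scaled to a common library total, with the totals corrected by the trimmed mean of M-values.

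Ifi44l rose in KMS mice and the other 53 genes passed the test in neither direction, although most of them had lower means in KMS than in KM mice. A gene was called where edgeR's quasi-likelihood test gave an adjusted p under 0.05 with a change of more than 1.5-fold in either direction, and every adjusted p given here is from that test over all 15728 genes unless another fit is named beside it. By this rule 1 of the 54 members was called higher (1.85%) and 0 lower, beside 0.0254% of all tested genes called higher and 0.0763% called lower. At an unadjusted p under 0.05, 1 member was higher and 9 were lower (16.7%), beside 10.8% and 8.62% of all tested genes. The 9 were Zbp1, Oas3, Ifit3, Mx1, Samhd1, Isg15, Parp14, Sp100 and Trim30a. A log2 fold change below 0 was found in 45 of the 54 members (83.3%), beside 46.0% of all tested genes, and the median over the members was -0.43, against 0.06 over all tested genes. With limma-voom the count of members called was 1 (1.85%), Ifi44l, beside 0.21% of all genes. With other fits it was 2 (3.7%): DESeq2, which called 3.89% of all genes lower, and edgeR's likelihood ratio test, which called 2.99% lower, each added Zbp1. In either direction, these fits called 5.1% (DESeq2) and 3.83% (likelihood ratio test) of all genes. Without KMS 5, 1 member was called (1.85%), beside 0.138% of all genes, and 44 of 54 were negative, with a median of -0.36. In bulk RNA, fewer cells of a type and less RNA per cell cannot be told apart.

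**Figure D1:**
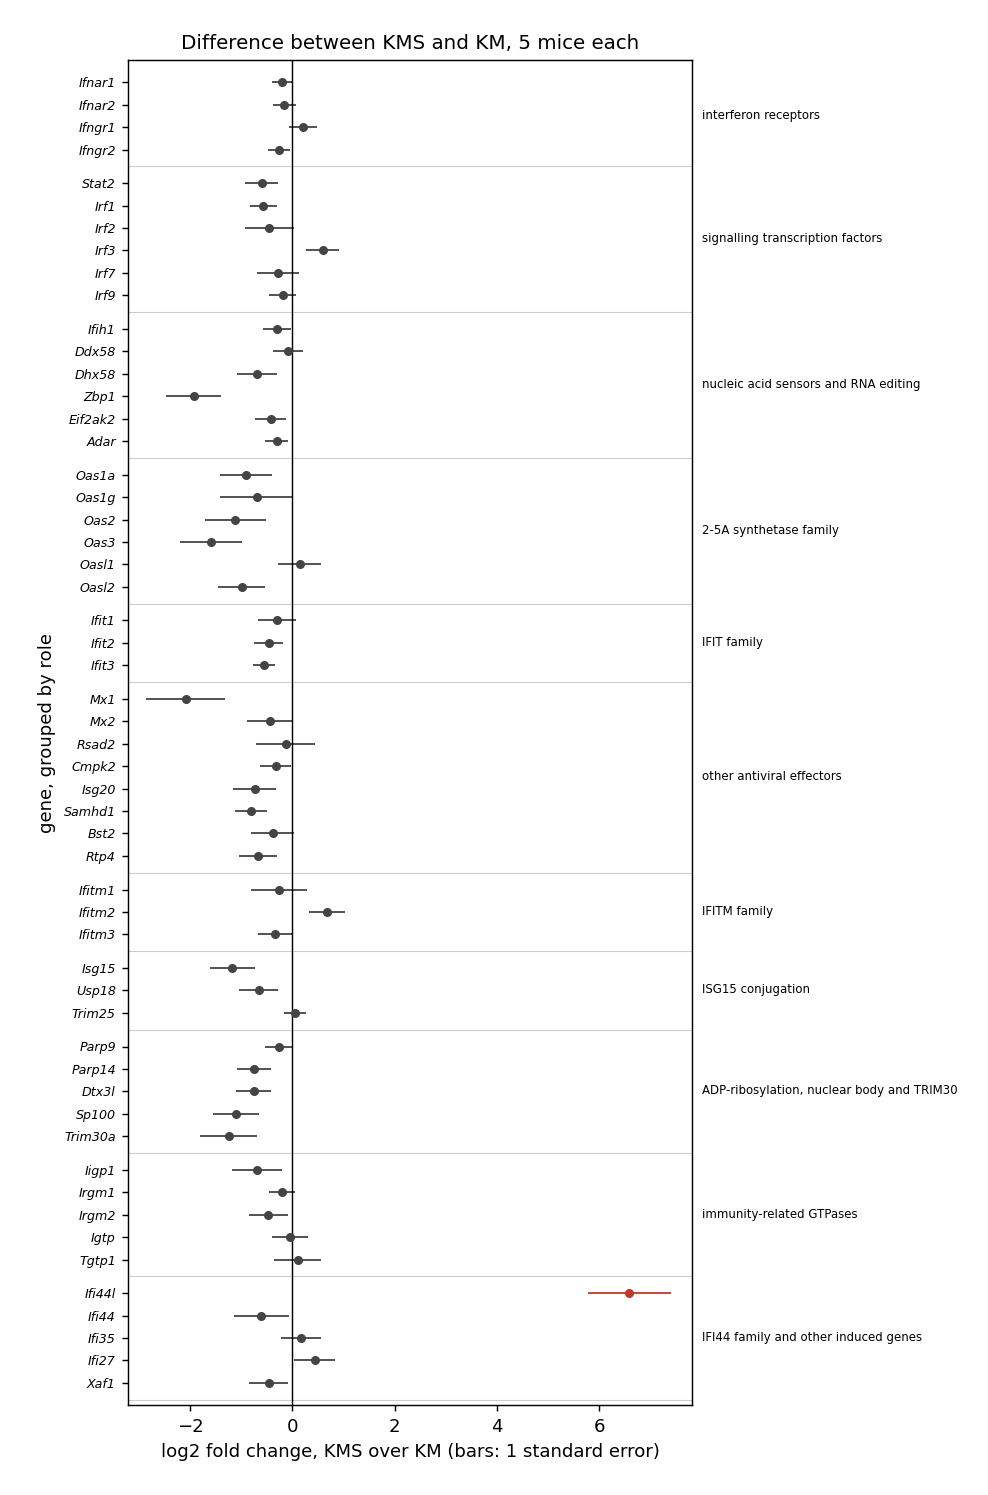
Log2 fold change, KMS over KM, of the 54 interferon genes (horizontal axis) grouped by role (vertical axis), with bars of 1 standard error from the fit over 5 KMS and 5 KM mice. Ifi44l, in red, lies at 6.58, and the other 53 genes lie between -2.08 and 0.68, 45 of them left of 0.

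Ifi44l encodes interferon-induced protein 44-like, a cytoplasmic protein with antiviral activity in human cells. The mouse gene lies at chr3:151758737-151762891 on the minus strand of GRCm38. It had 126, 97, 199, 104 and 20 counts in KMS 1 to 5, against 0, 1, 1, 2 and 0 counts in KM 1 to 5. Scaled for depth, these were 5.89, 5.60, 11.8, 5.72 and 1.25 CPM in KMS mice, against 0, 0.0756, 0.0592, 0.138 and 0 CPM in KM mice. All 5 KMS libraries were above all 5 KM libraries, KMS 3 was the highest and KMS 5 the lowest of the KMS libraries, and KM libraries held at most 2 counts. The mean was 6.04 ± 3.74 CPM in KMS mice and 0.0545 ± 0.0577 CPM in KM mice (SD, n = 5 each). The log2 fold change was 6.58 (SE 0.81, adjusted p = 0.00971), a value that depends on the prior count because the KM counts are so few. The pooled counts, 546 in KMS and 4 in KM, gave a ratio of rates of 109 with an exact 95% interval of 42.4 to 402, which covers counting error only.

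The rise of Ifi44l was called in 19 of the 20 alternative fits that gave it a value, with log2 fold changes of 6.06 to 7.17. With the mean Y-linked level as a covariate, the log2 fold change was 6.09 (adjusted p = 0.0358), and the KMS libraries were above the KM libraries whether that level was low or high. With the replicate number as a block, the log2 fold change was 6.63 and the adjusted p was 0.0592. A filter that asked for 1 CPM in 5 libraries removed the gene, as KMS 5 and all KM libraries fell short of it before normalisation.

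Ifi44, its paralogue at chr3:151730922-151749910 on the same strand, lies 8827 bases from Ifi44l and encodes the related protein IFI44. Its level was 7.72, 8.66, 27.8, 22.2 and 2.99 CPM in KMS mice, against 14.9, 14.7, 13.2, 27.4 and 35.4 CPM in KM mice. The groups overlapped, with KMS 3 and 4 inside the KM range and KMS 1, 2 and 5 below it. The mean was 13.9 ± 10.6 CPM in KMS mice and 21.1 ± 9.83 CPM in KM mice (SD, n = 5 each). The log2 fold change was -0.61 (SE 0.54, adjusted p = 0.560). For every 100 counts of Ifi44 there were 76.4, 64.7, 42.3, 25.8 and 41.7 counts of Ifi44l in KMS 1 to 5, against 0, 0.513, 0.448, 0.501 and 0 in KM 1 to 5. Ifi44l did not exceed 2 counts in KM 4 and KM 5, where Ifi44 had 399 and 488 counts. Per kilobase of exon, the mean level of Ifi44l was 4.39 CPM in KMS and 0.0396 CPM in KM, and that of Ifi44 was 2.26 CPM in KMS and 3.45 CPM in KM. Of the 10 tested genes that flank Ifi44l on chromosome 3, 5 on each side with Ifi44 among them, none was called. They spanned chr3:146838775-152266350, reaching further from Ifi44l on the side of Ifi44, and their log2 fold changes lay between -1.37 and 1.80.

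**Figure D2:**
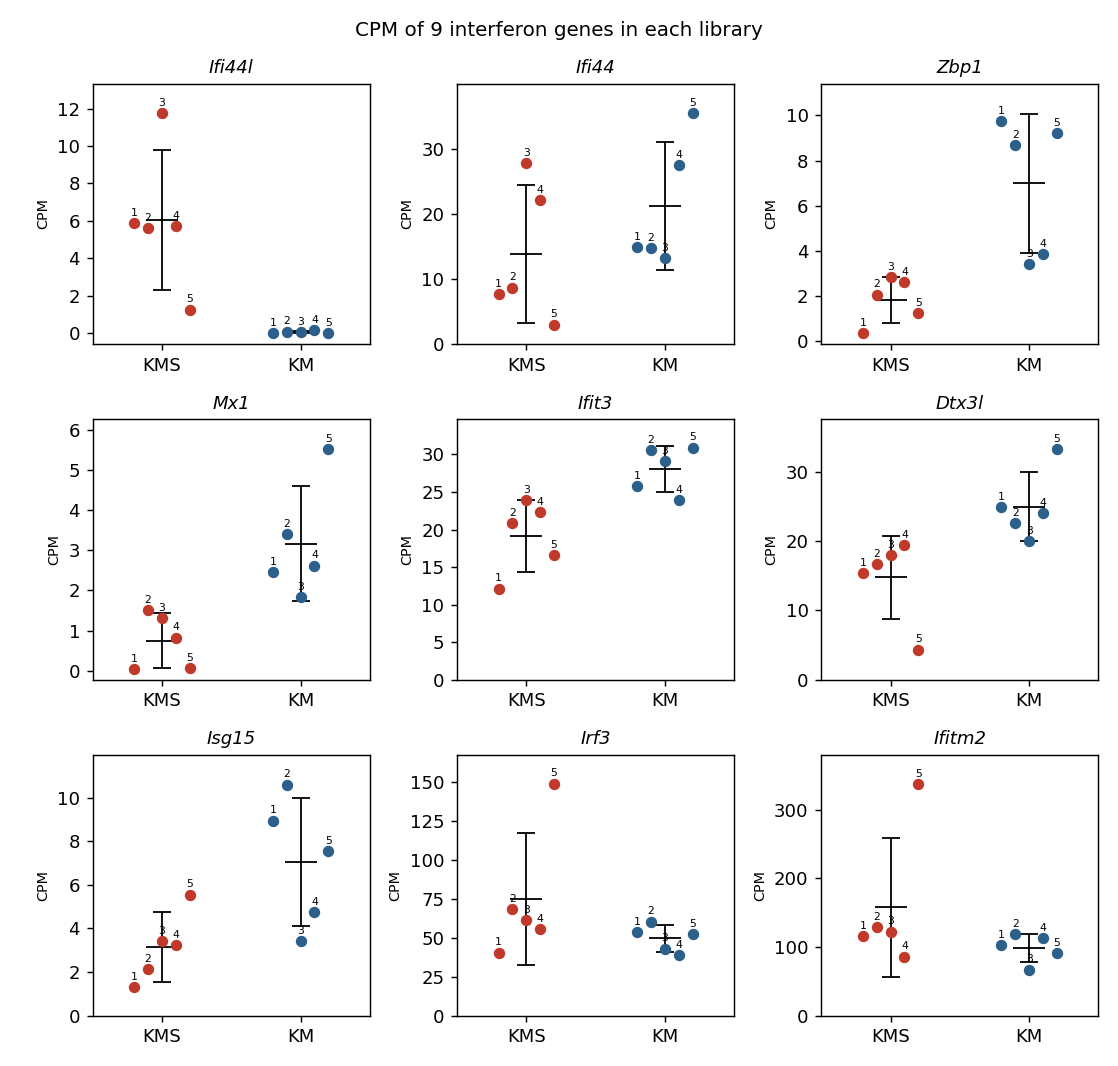
CPM (vertical axis) of 9 interferon genes in each library, KMS at left and KM at right, with the replicate number beside each point and the mean and SD as lines. Ifi44l is above 1 CPM in all 5 KMS mice and at or below 0.138 CPM in all 5 KM mice, Zbp1, Mx1, Ifit3 and Dtx3l are lower in every KMS than in every KM library, and Ifi44, Isg15, Irf3 and Ifitm2 overlap between the groups.

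The other members of this role group were Ifi35, Ifi27 and Xaf1. Xaf1, which encodes a binding partner of the apoptosis inhibitor XIAP, had 3.13, 5.71, 8.74, 9.12 and 4.36 CPM in KMS mice, against 8.79, 10.3, 3.97, 8.18 and 11.6 CPM in KM mice. The ranges overlapped over most of their length (log2 fold change -0.46, SE 0.38, adjusted p = 0.530). Ifi35 and Ifi27 had log2 fold changes of 0.18 and 0.44, and neither passed the test. Ifi27, a mitochondrial membrane protein gene in human, was among the most abundant members per kilobase of exon, at 47.9 CPM in KMS and 35.3 CPM in KM.

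All 4 receptor genes were expressed in every library, and none differed by the test. Ifnar1 had 64.9, 63.3, 64.3, 62.6 and 35.4 CPM in KMS mice, against 68.0, 65.9, 55.9, 67.4 and 75.7 CPM in KM mice (log2 fold change -0.20, SE 0.20, adjusted p = 0.621). Ifnar2, the other chain of the type I receptor, had 40.6, 36.3, 44.2, 35.7 and 50.7 CPM in KMS mice, against 51.9, 58.8, 26.8, 45.9 and 48.2 CPM in KM mice (log2 fold change -0.16, SE 0.22, adjusted p = 0.735). For Ifnar1, KMS 5 was well below the other 9 libraries, and for Ifnar2 the groups were interleaved. The ligand-binding chain of the interferon gamma receptor, Ifngr1, had 111, 84.1, 60.8, 73.3 and 41.7 CPM in KMS mice, against 60.4, 65.4, 39.8, 72.8 and 81.6 CPM in KM mice (log2 fold change 0.21, SE 0.28, adjusted p = 0.705). Its partner chain Ifngr2 had 41.9, 46.3, 28.8, 33.3 and 40.3 CPM in KMS mice, against 47.5, 55.8, 31.9, 38.5 and 54.1 CPM in KM mice (log2 fold change -0.26, SE 0.21, adjusted p = 0.535). Both overlapped between the groups.

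The interferon transcripts analysed were barely counted. Of the 20 ligand genes listed, Ifng and Ifne were in the table, neither passed the filter, and the other 18 were not analysed here. Ifng had 0, 0, 9, 0 and 0 counts in KMS 1 to 5, against 2, 2, 1, 0 and 3 counts in KM 1 to 5. Ifne had 0 counts in every KMS library, against 3, 0, 0, 0 and 14 counts in KM 1 to 5. Both were too sparsely counted to be compared.

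Of the 6 signalling transcription factor genes, 5 had negative log2 fold changes and none passed the test. Irf1, an activator induced early by interferon gamma, had 20.4, 19.3, 31.1, 30.1 and 17.3 CPM in KMS mice, against 36.3, 37.4, 20.2, 35.5 and 45.8 CPM in KM mice. KM 3 lay within the KMS range and the other 4 KM libraries lay above it (log2 fold change -0.57, SE 0.26, adjusted p = 0.257). Irf3, the latent factor that drives interferon beta after nucleic acid sensing, was the member of the group with a positive value. It had 40.4, 68.2, 61.5, 55.6 and 149 CPM in KMS mice, against 53.4, 60.4, 43.0, 38.6 and 52.1 CPM in KM mice, with KMS 5 far above the rest (log2 fold change 0.60, SE 0.32, adjusted p = 0.323). Without KMS 5 the log2 fold change of Irf3 was 0.21, the lowest over the 10 fits that each left out 1 library. Stat2, Irf9 and Irf7 had log2 fold changes of -0.60, -0.19 and -0.28. Irf2, a factor that can oppose Irf1, had -0.45, and -1.21 without KMS 5 (adjusted p = 0.101), where it was highest. The exons of Irf3, Irf7 and Irf1 overlap those of neighbouring genes on the opposite strand, and no strand setting was found for the counting. Those of Irf9 overlap Rnf31 on the same strand, so the values of all 4 are uncertain. Outside this group, exons of Ifnar2, Dhx58, Eif2ak2, Adar, Oasl1, Rtp4, Ifitm2, Usp18, Parp14, Sp100, Tgtp1 and Ifi35 also overlap other annotated genes.

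Of the 17 genes for kinases, adaptors and regulators around the receptors, none was called, 13 were negative and the median log2 fold change was -0.62. The most abundant, Jak1 and Mavs, had log2 fold changes of -0.02 and 0.15. At an unadjusted p under 0.05 by edgeR's quasi-likelihood test, 3 of the 17 were lower (17.6%) and 0 higher, beside 8.62% and 10.8% of all tested genes.

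All 6 genes for nucleic acid sensors and RNA editing had negative log2 fold changes, with a median of -0.36, and none was called. Zbp1, a sensor of Z-form nucleic acid that can trigger necroptosis, had the lowest p of the group. Its level was 0.374, 2.08, 2.84, 2.64 and 1.25 CPM in KMS mice, against 9.76, 8.70, 3.43, 3.85 and 9.22 CPM in KM mice. Every KMS library was below every KM library, by a small margin for KM 3 and KM 4 (log2 fold change -1.93, SE 0.54, adjusted p = 0.152). Groups that did not overlap, with KMS lower, were found for 4 members (7.41%), Zbp1, Ifit3, Mx1 and Dtx3l, beside 2.94% of all tested genes, and with KMS higher for Ifi44l alone (1.85%), beside 1.84%. The adjusted p of Zbp1 was 0.00916 with DESeq2 and 0.0241 with the likelihood ratio test. Dhx58, which encodes LGP2, a regulator of the RNA sensors, had 3.97, 2.42, 5.38, 4.40 and 1.81 CPM in KMS mice, against 4.62, 6.35, 3.73, 4.95 and 9.36 CPM in KM mice, with overlap (log2 fold change -0.69, SE 0.39, adjusted p = 0.346). The RNA sensor genes Ifih1 (MDA5) and Ddx58 (RIG-I) had -0.30 and -0.09, the kinase gene Eif2ak2 (PKR) had -0.42 and the RNA editing gene Adar had -0.30.

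Among the 6 genes of the 2-5A synthetase family, whose active enzymes make the oligoadenylates that switch on RNase L, 5 were negative with a median over the 6 of -0.95, and none was called. Oas3 had 0.561, 0.462, 2.13, 0.715 and 0.374 CPM in KMS mice, against 2.23, 2.19, 0.829, 2.13 and 5.37 CPM in KM mice. Only KMS 3 was above a KM library, KM 3 (log2 fold change -1.58, SE 0.61, adjusted p = 0.209), and without KMS 3 the log2 fold change was -2.24 (adjusted p = 0.114). Oasl2, a relative of OAS with ubiquitin-like domains, had 3.18, 10.7, 18.1, 12.5 and 4.86 CPM in KMS mice, against 22.4, 20.8, 9.47, 15.4 and 30.0 CPM in KM mice. KMS 2, 3 and 4 overlapped KM 3 and 4 (log2 fold change -0.99, SE 0.46, adjusted p = 0.264). Oas1a, Oas1g and Oas2 had -0.90, -0.70 and -1.12, and Oasl1 had 0.15 (-0.03 with upper-quartile factors). Transcripts of Oas1a and Oas1g are 97.6% identical over 1861 bases, so that reads of the pair may be split between them. Per kilobase of exon Oas3 was at 0.120 CPM in KMS, the lowest of the 54 members there, and at 0.361 CPM in KM.

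The 3 IFIT genes, whose products bind foreign RNA ends and hinder its translation, lie together on chromosome 19, and all 3 were negative. Ifit3 had 12.2, 20.9, 23.9, 22.3 and 16.6 CPM in KMS mice, against 25.8, 30.6, 29.1, 23.9 and 30.9 CPM in KM mice. No KMS library exceeded a KM library, but KMS 3 and KM 4 were level to 3 digits (log2 fold change -0.55, SE 0.22, adjusted p = 0.220). Ifit2 had 15.4, 13.04, 22.7, 18.1 and 7.73 CPM in KMS mice, against 21.2, 21.9, 15.9, 25.03 and 22.1 CPM in KM mice, with overlap through KMS 3, KMS 4 and KM 3 (log2 fold change -0.46, SE 0.28, adjusted p = 0.382). Ifit1 had -0.29. Ifit3 shares 97.8% identity over 1700 bases with Ifit3b, which was not analysed here.

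All 8 genes for other antiviral effectors were negative, with a median of -0.55 and none called. Mx1, a dynamin-like GTPase gene that is inactive as a protein in many laboratory strains, had 0.0468, 1.5, 1.30, 0.825 and 0.0623 CPM in KMS mice, against 2.46, 3.40, 1.84, 2.61 and 5.51 CPM in KM mice. These stood for 1, 26, 22, 15 and 1 counts in KMS 1 to 5, against 33, 45, 31, 38 and 76 counts in KM 1 to 5. All KMS libraries were below all KM libraries, and KMS 1 and KMS 5 held a single count each (log2 fold change -2.08, SE 0.77, adjusted p = 0.202). Samhd1, which encodes a nucleotide triphosphohydrolase that starves retroviruses of building blocks, had 27.5, 29.0, 55.5, 34.7 and 22.9 CPM in KMS mice, against 67.0, 57.6, 29.8, 57.8 and 84.4 CPM in KM mice. KMS 3 and KMS 4 were above KM 3 (log2 fold change -0.81, SE 0.31, adjusted p = 0.208). Mx2, Isg20, Rtp4, Bst2, Cmpk2 and Rsad2 had log2 fold changes of -0.73 to -0.13. Rsad2, which encodes viperin, ranged from 8.35 CPM in KMS 5 to 79.1 CPM in KMS 1, beyond both ends of the KM range of 18.1 to 52.7 CPM, and its log2 fold change was -0.84 without KMS 1. Transcripts of Mx1 and Mx2 are 94.8% identical over 921 bases.

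The IFITM genes, whose small membrane proteins hinder fusion of viruses, included the most abundant members per kilobase of exon: Ifitm2 with 241 CPM in KMS and 150.4 CPM in KM, and Ifitm3 with 76.1 CPM in KMS and 95.6 CPM in KM. Ifitm2 had 116, 129, 122, 85.9 and 337 CPM in KMS mice, against 103, 119, 67.1, 112.5 and 90.8 CPM in KM mice. KMS 5 was far above the other 9 libraries (log2 fold change 0.68, SE 0.36, adjusted p = 0.309), and the value was 0.23 in the fit without it. Ifitm3 had 30.2, 39.8, 69.5, 46.1 and 72.3 CPM in KMS mice, against 67.8, 82.5, 23.1, 73.6 and 77.1 CPM in KM mice. KM 3 was the lowest of all 10 (log2 fold change -0.33, SE 0.35, adjusted p = 0.634). Ifitm1 had -0.26, and -0.98 without KMS 5 (adjusted p = 0.260). All 3 share stretches over 90% identical with predicted genes or pseudogenes.

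Of the 3 genes of ISG15 conjugation, Isg15 encodes the ubiquitin-like modifier, Usp18 the protease that removes it and also restrains IFNAR2, and Trim25 a ligase that acts on RIG-I. Isg15 had 1.31, 2.14, 3.43, 3.24 and 5.55 CPM in KMS mice, against 8.94, 10.6, 3.43, 4.74 and 7.55 CPM in KM mice. KMS 5 was above KM 3 and KM 4, and the other 4 KMS libraries were not above any KM library (log2 fold change -1.17, SE 0.45, adjusted p = 0.207). Usp18 had 2.06, 3.29, 6.56, 2.25 and 3.30 CPM in KMS mice, against 5.51, 7.41, 4.14, 3.99 and 6.53 CPM in KM mice, with overlap through KMS 3 (log2 fold change -0.66, SE 0.38, adjusted p = 0.359). Trim25 had 0.05 (-0.09 with upper-quartile factors).

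All 5 genes for ADP-ribosylation, nuclear bodies and TRIM30 were negative, with a median of -0.76 and none called. Parp14, a mono-ADP-ribosyltransferase gene, had 20.1, 18.2, 40.3, 30.1 and 12.3 CPM in KMS mice, against 41.5, 43.2, 24.4, 36.3 and 59.1 CPM in KM mice. KMS 3 and KMS 4 were above KM 3, and KMS 3 was above KM 4 (log2 fold change -0.76, SE 0.33, adjusted p = 0.243). Sp100, a gene for a nuclear body protein, had 9.49, 7.50, 28.1, 19.0 and 5.55 CPM in KMS mice, against 31.2, 24.2, 16.0, 33.8 and 43.7 CPM in KM mice, with KMS 3 and KMS 4 again above KM 3 (log2 fold change -1.10, SE 0.44, adjusted p = 0.221). Dtx3l, the gene for the ubiquitin ligase partner of PARP9, was singled out after its values were seen. It had 15.3, 16.7, 18.02, 19.5 and 4.36 CPM in KMS mice, against 24.9, 22.6, 20.01, 24.1 and 33.3 CPM in KM mice. The groups did not overlap, and KMS 5 was far below the other 4 KMS libraries (log2 fold change -0.76, SE 0.35, adjusted p = 0.257). With 1 factor of unwanted variation (RUVg), which called 3.29% of all genes lower, Dtx3l was called lower (adjusted p = 0.0402). That factor was taken from the genes outside the 5000 of lowest p for KMS against KM in these data. The call is therefore not independent of the main comparison. Without KMS 5 its log2 fold change was -0.49. Trim30a and Parp9 had -1.24 and -0.26. Exons of Parp9 and Dtx3l overlap on opposite strands, Trim30a is 90.1% identical to Trim30d over 1719 bases, and Sp100 shares stretches over 98% identical with predicted genes.

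The 5 immunity-related GTPases, which attack the vacuoles of intracellular parasites in mouse cells and are strongly induced by interferon gamma, had a median of -0.19 and none was called. Iigp1 had 7.67, 10.8, 23.0, 33.7 and 6.23 CPM in KMS mice, against 36.0, 26.8, 9.83, 22.8 and 36.0 CPM in KM mice (log2 fold change -0.69, SE 0.49, adjusted p = 0.460). Irgm2 had 15.2, 12.4, 36.0, 42.4 and 13.1 CPM in KMS mice, against 38.1, 37.1, 21.8, 27.0 and 40.9 CPM in KM mice (log2 fold change -0.47, SE 0.38, adjusted p = 0.516). In both, KMS 3 and KMS 4 lay within or above the KM range, and KMS 1 and KMS 5 lay below it. Irgm1, Igtp and Tgtp1 had -0.19, -0.05 and 0.10, and Tgtp1 had -0.02 with upper-quartile factors. Tgtp1 is 99.8% identical to Tgtp2 over 2811 bases, and exons of Igtp and Irgm2 overlap on the same strand, so their values are uncertain.

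Members with the element GAAANNGAAA near the start had a median log2 fold change of -0.40 (18 of 20 negative, 0 called), and members with a promoter but without it had -0.28 (17 of 23 negative, 1 called). Of 48 further interferon-stimulated genes that passed the filter, 35 were negative with a median of -0.41 and none was called. The most abundant of these, Lgals3bp and Shisa5, had log2 fold changes of 0.12 and -0.04. At an unadjusted p under 0.05 by edgeR's quasi-likelihood test, 9 of the 48 were lower (18.8%) and 0 higher, beside 8.62% and 10.8% of all tested genes.

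The members were not spread evenly over the mice of a group. The median deviation of the 53 genes other than Ifi44l from their mean over the 10 libraries was -0.62, -0.31, 0.31, 0.03 and -0.79 on the log2 scale in KMS 1 to 5, against 0.35, 0.41, -0.38, 0.15 and 0.71 in KM 1 to 5. Among KM libraries, KM 5 was the highest for 35 members (64.8%, beside 26.0% of all tested genes) and KM 3 the lowest for 45 (83.3%, beside 30.1%). KMS libraries were more mixed. KMS 3 was the highest for 24 members (44.4%, beside 18.1% of all tested genes) and the lowest for 1. KMS 1 was the lowest for 18 members and the highest for 6. KMS 5 was the lowest for 27 members and also the highest for 11, and it held the lowest value of 32.9% and the highest value of 34.0% of all tested genes. Members were more variable among KMS than among KM mice, with a median SD of 0.67 in KMS and 0.48 in KM on the log2 scale, and so were all tested genes (0.66 in KMS and 0.37 in KM).

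**Figure D3:**
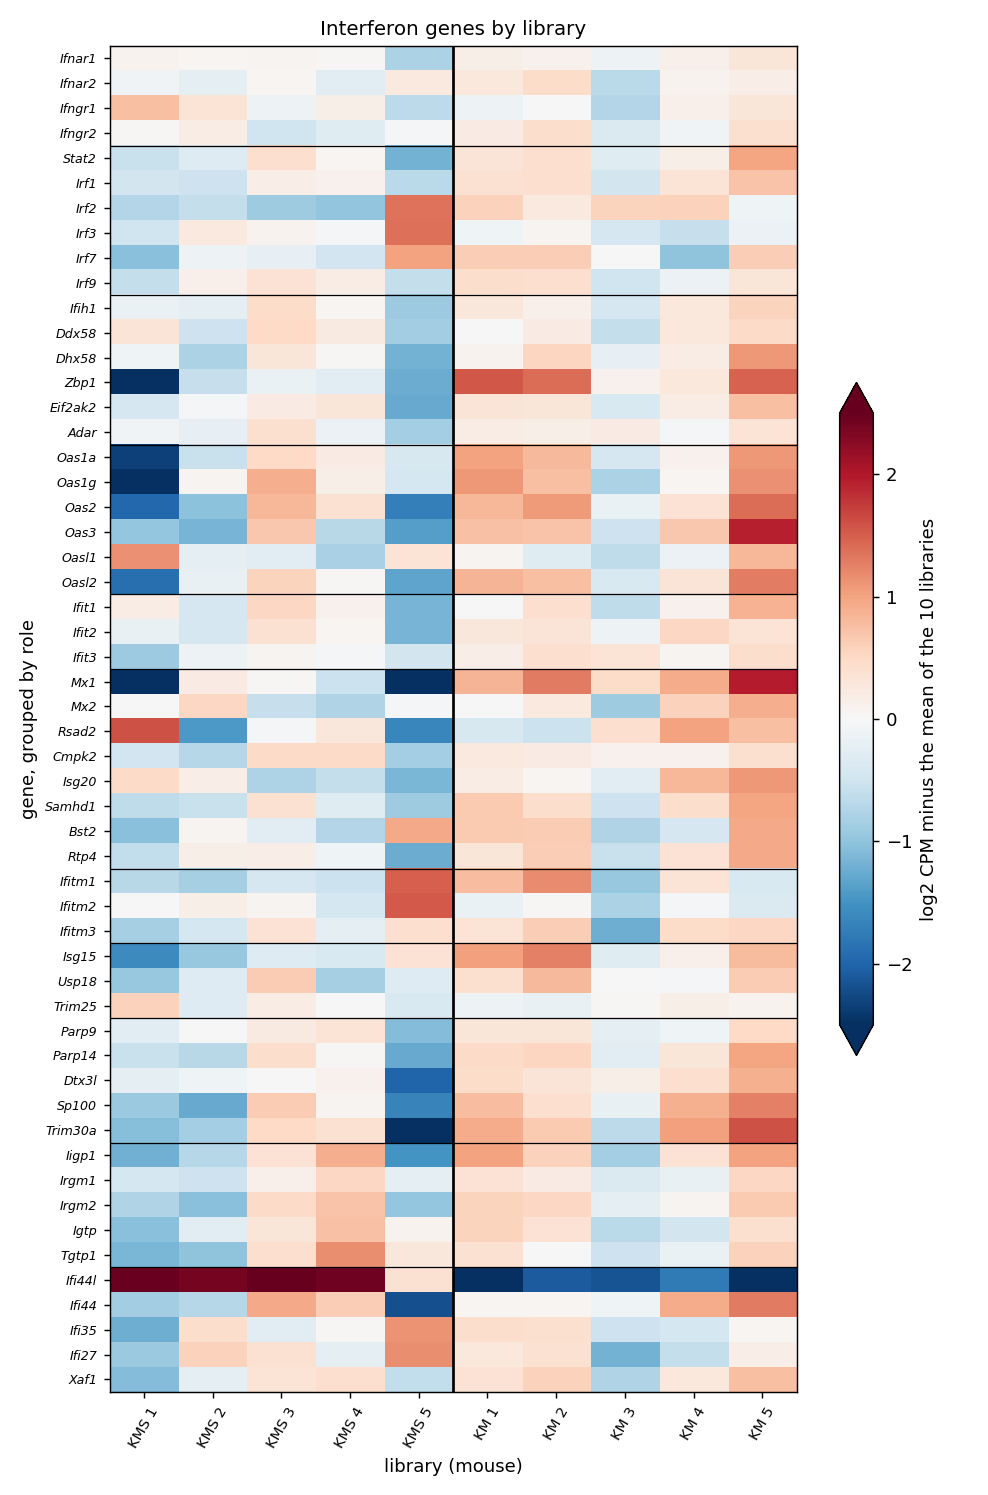
Log2 CPM of each of the 54 genes minus its mean over the 10 libraries (colour), with genes down the page grouped by role and KMS libraries left of KM libraries. KM 3 is low for 45 members among KM mice and KM 5 is high for 35, KMS 5 holds the lowest KMS value of 27 members, and Ifi44l separates all KMS from all KM libraries.

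Some markers of other cell types had the same libraries at their ends as the members, and others did not. Ptprc, which encodes CD45, the antigen common to leukocytes, had 14.3, 17.7, 44.0, 29.5 and 6.60 CPM in KMS mice, against 64.6, 49.0, 25.99, 75.2 and 96.1 CPM in KM mice (log2 fold change -1.47, SE 0.48, adjusted p = 0.182). KMS 3, KM 5 and KM 3, the libraries at the ends for the members, were also the highest KMS, the highest KM and the lowest KM library for Ptprc. Of 38 markers of T and NK cells, B and plasma cells, macrophages, dendritic cells, neutrophils and leukocytes at large, 31 passed the filter. Of these 31, 29 were negative with a median of -1.40, and none was called. At an unadjusted p under 0.05 by edgeR's quasi-likelihood test, 19 were lower in KMS (61.3%) and 0 higher, beside 8.62% and 10.8% of all tested genes. Groups that did not overlap, with KMS lower, were found for 5 of them (16.1%), beside 2.94% of all tested genes. The summed level of 13 T and NK cell markers was 2.24 to 16.7 CPM in KMS and 21.1 to 44.5 CPM in KM. That of 9 B and plasma cell markers was 66.2 to 222 CPM in KMS and 139.5 to 582 CPM in KM, and that of 15 macrophage, dendritic and neutrophil markers was 183 to 431 CPM in KMS and 248.7 to 953 CPM in KM. Cd3g, Cd8b1, Trac, Ncr1, Klrb1c, Ms4a1, Pax5 and Siglech were at 0 counts in at least 1 KMS library and in no KM library, and Ly6g was at 0 in KMS 1, KMS 5 and KM 3. For the B and plasma cell markers KM 5 was the lowest KM library, KMS 5 the highest KMS library and KMS 3 the lowest, and for the T and NK cell markers KM 3 was not the lowest KM library. Of 10 fibroblast and endothelial markers, 9 were negative and none was called, and their summed level was highest in KMS 3 (1038 CPM) and lowest in KMS 5 (253 CPM) among KMS libraries, and lowest in KM 3 (579.7 CPM) and highest in KM 4 (1049.6 CPM) and KM 5 (1043 CPM) among KM libraries. At an unadjusted p under 0.05, 4 of these 10 were lower in KMS (40%) and 0 higher. Col1a1, a fibroblast collagen gene chosen after its values were seen, had a log2 fold change of -2.90 (adjusted p = 0.0736). The part of these markers in the results for the members was not tested. Among KMS libraries, Ifi44l and Ptprc were both highest in KMS 3 and lowest in KMS 5. In KM libraries, where Ptprc was at 25.99 to 96.1 CPM, Ifi44l held 0 to 2 counts. A link between Ifi44l and Ptprc was not tested.

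**Figure D4:**
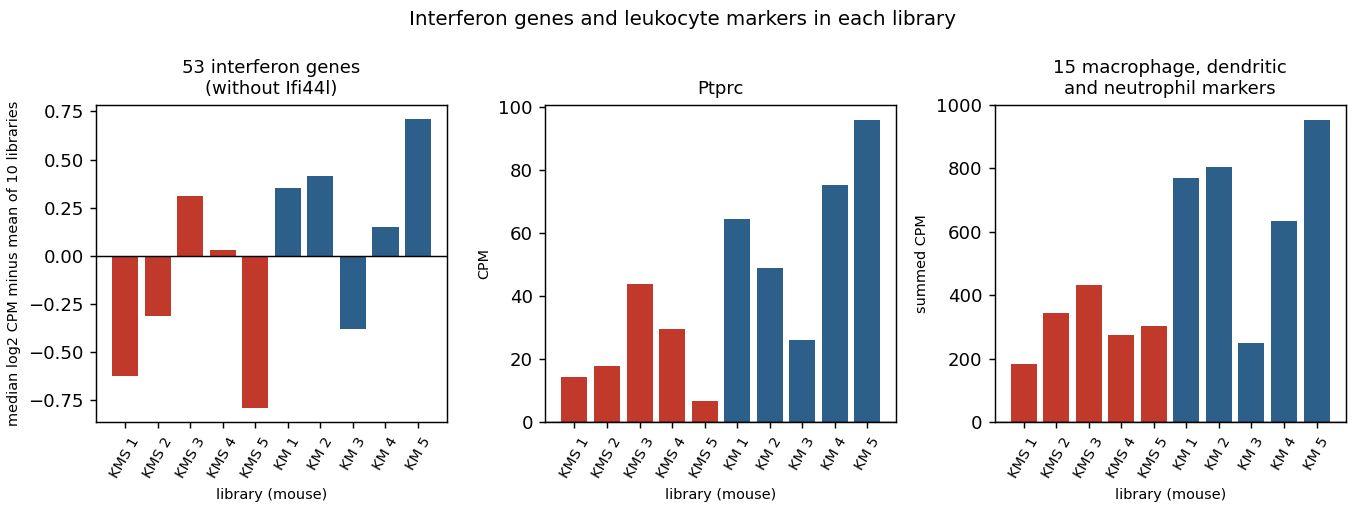
Median log2 deviation of the 53 interferon genes other than Ifi44l (left), CPM of Ptprc (middle) and summed CPM of 15 macrophage, dendritic and neutrophil markers (right) in each library, with KMS left of KM. KM 3 is the lowest KM library in all 3 panels and KM 5 the highest, and KMS 3 is the highest KMS library in all 3.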

How the data were processed

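RNA of 10 kidneys was read from directional poly(A) libraries as paired reads. Per the labels and the study's methods, the authors aligned reads with HISAT2 2.2.1 to GRCm38 and deposited gene counts from HTSeq, with version and strand setting not given in the sources used here, and the submitters' processing notes also name cutadapt 1.9.1 and Trimmomatic 0.35. The deposited values are raw counts per gene, and all 10 sample columns were mapped to their mouse by title. A further 3 columns hold the authors' fold change, p-value and FDR and were not used.

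Counts were fitted with edgeR 4.0.16 in R 4.3.3: TMM factors, filterByExpr with the groups (minimum count 10, minimum total 15), glmQLFit and glmQLFTest over all 10 libraries with no covariate, and Benjamini-Hochberg adjustment over 15728 genes. CPM in the text carry no prior count; log2 CPM used a prior count of 3. Totals were 10873993 to 25029639 counts, and this depth sets the precision of low counts. Replicates were separate mice. KM 1 and KM 2 were by far the most alike pair, but differed by more than sampling noise (chi-square of 5.95 per gene). Every other pair within a group stood at 50.6 to 735 per gene. The cause of this likeness was not tested, and the 2 libraries were kept separate. The alternatives were RLE and upper-quartile factors, DESeq2 1.42.0, limma-voom 3.58.1, the likelihood ratio test, no filter and a stricter one, no fold threshold, RUVg, a Y-linked covariate, thinning to the lowest total, a replicate block and leaving out each library. The procedure was run on simulated data that had less spread between mice than these data. Changes were placed only in genes above a set mean CPM, so genes with few counts were not covered. RUVSeq is named in the study's methods without settings, so its factor is an alternative only. DESeq2 was run without such a factor. Its totals of genes called, higher and lower, equal those that the study reports, and those of RUVg do not. The lists were not compared gene by gene. Among the members, the DESeq2 fit called Ifi44l higher and Zbp1 lower.

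Genes were named by rule: each called gene, Ifi44l, Ifi44, all receptors and, in each role group, the 2 members with the lowest unadjusted p; of other lists, the 2 most abundant, Setd2 and Ptprc; 1 further gene of the rule is not reported here. The members and lists were chosen with earlier results of these data known, so no test was made over a list. Gene positions are of RefSeq on GRCm38, and promoters are of RefSeq on GRCm38.p6. Strands, exon lengths and exon overlaps are of GENCODE vM21 on GRCm38. Near-identical transcripts (at least 90% identity over 300 bases) were found with BLAST+ 2.17.0.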

Additional observations from a re-analysis of the deposited data

Results flagged for a closer look

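In 5 of 108 sets of 5 libraries (54 genes in each of 2 groups), 1 library stood apart from the other 4 by Dixon's ratio (critical value 0.71); chance gives about 1 in 20. KMS 5 was that library in 4 of the 5. Ifnar1 had 35.4 CPM in KMS 5, against 62.6 to 64.9 CPM in the other KMS libraries (ratio 0.942). Dtx3l had 4.36 CPM in KMS 5, against 15.3 to 19.5 CPM (ratio 0.839). Irf2 had 16.9 CPM in KMS 5, against 3.19 to 4.27 CPM (ratio 0.829), and Ifitm1 had 24.7 CPM there, against 4.79 to 6.44 CPM (ratio 0.822). Ifitm3 had 23.1 CPM in KM 3, against 67.8 to 82.5 CPM in the other KM libraries (ratio 0.846).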

How the results depend on the processing

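The count of all genes called was 16 (4 higher and 12 lower in KMS). It was 25 with upper-quartile factors, 1072 with DESeq2 (255 higher, 817 lower), 33 with limma-voom, 602 with the likelihood ratio test, 1033 with RUVg (516 higher, 517 lower), 7 with the Y-linked covariate, 28 after thinning and 9 to 42 when 1 library was left out (9 without KMS 1 or KM 2, 10 without KMS 4, 42 without KMS 2). Members called numbered 2 (3.7%) with DESeq2, the likelihood ratio test and RUVg, beside 5.1%, 3.83% and 6.57% of all genes in those fits. They numbered 0 with the stricter filter, which removes Ifi44l by its construction, beside 0.0945% of all genes. In every fit without 1 library, 1 member (1.85%) was called, always Ifi44l (its adjusted p 0.00113 to 0.0446), beside 0.0558% to 0.263% of all genes. Zbp1 passed with a log2 fold change of -1.93 in both DESeq2 and the likelihood ratio test. The cause of these changes was not tested. The member median was -0.54 to -0.29 without 1 library, with 42 to 46 of 54 members negative. With the Y-linked covariate it was -0.37, with 41 members negative and 13 positive. Upper-quartile factors shifted the median of all genes to -0.09, and the member median minus that of all genes was -0.48 with either kind of factor. Of 524 values of the 25 genes given in every library by rule, 0 changed direction. Over all 54 members, 32 of 1133 values did, in 11 members whose log2 fold changes were 0.38 or less in size, such as Irf7 (0.37 with the Y-linked covariate).

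Same-numbered mice did not deviate together (correlations of -0.44 to 0.14 over 5 pairs, 1 of 5 best with its own number), so the numbers are not taken to pair them. With the replicate block, 2 genes were called in all and 0 members, and Ifi44l had 6.63. Depth limits the members with few counts: Mx1, Oas3 and Zbp1 in KMS, and Ifi44l in KM.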
